A study of Mus musculus with 3 samples.

Results

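Lysine acetyltransferases attach acetyl groups to histones and other proteins, and deacetylases remove them. CBP and p300 are large coactivators that transcription factors recruit, whereas GCN5 and PCAF act within multiprotein coactivator complexes. The class I deacetylases HDAC1 and HDAC2 are the catalytic subunits of several corepressor complexes, and HDAC3 works with the corepressors NCoR and SMRT. Class IIa deacetylases shuttle between nucleus and cytoplasm and bind MEF2 transcription factors. In medullary thymic epithelium, CBP and p300 are known to acetylate Aire, the regulator that switches on many tissue-restricted antigens, and SIRT1 is known as a deacetylase of Aire.

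The genes described are Crebbp, Ep300, Kat2a and Kat2b among the acetyltransferases and Hdac1, Hdac2, Hdac3, Hdac4, Hdac5 and Hdac7 among the deacetylases. They were chosen by symbol, with the brightest probe set of each gene, and all 10 were found among 19937 genes with a probe set of 1 symbol. The name class I covers 3 of the 6 deacetylases, since Hdac4, Hdac5 and Hdac7 belong to class IIa. All 10 met the minimum used here to call a gene measured, a highest level of at least 6.81 on the log2 scale, as did 12556 genes in all.

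Mature medullary thymic epithelial cells (mTECs, EpCAM+, CD45-, Ly51low, MHC-II high) were sorted from mice of strain C57b/6 aged 6 weeks, typically pooling 3 mice, and profiled on Affymetrix Mouse Gene 1-ST arrays. The WT library came from Sirt1fl/fl mice, the Sirt1cKO library from Sirt1fl/fl mice carrying Foxn1-Cre, which acts in thymic epithelium, and the AireKO library from Aire-/- mice. WT is thus a floxed control without Cre, and the labels give no floxed allele or Cre for AireKO. Each genotype had 1 library, so no test is possible, the spread between replicates is unknown, and every difference below describes 2 libraries.

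Both knockouts are called by the title of their library. Their description fields name each other's genotype, and the targeted genes check neither label, since a probe set need not lie in the deleted part. Aire stood at log2 11.97 in WT, 11.24 in Sirt1cKO and 11.55 in AireKO. Sirt1 stood at 11.40, 11.27 and 11.42 in the same order. Of 16 medullary epithelial markers on the array, 16 were above background in every library. Background is the 95th percentile of 1027 olfactory receptor genes, at 6.02 in WT, 6.34 in Sirt1cKO and 6.89 in AireKO. Xist and the Y-linked Eif2s3y differed between AireKO and WT by -5.42 and 5.52, between Sirt1cKO and WT by -0.71 and 4.68, and between Sirt1cKO and AireKO by 4.71 and -0.84. In WT, Sirt1cKO and AireKO, Xist stood at 12.17, 11.46 and 6.75, and Eif2s3y at 4.23, 8.92 and 9.75. Only Sirt1cKO was above background for both genes. Genotype and sex therefore cannot be told apart in any of the 3 comparisons, and the members are not sex-linked.

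The libraries also differed over all genes, and not by a constant amount. Over all measured genes, AireKO differed from WT by a median of -0.19, Sirt1cKO from WT by -0.07 and Sirt1cKO from AireKO by 0.11. Centring each library on its median turned the first value to 0.08. Without the brightness filter the AireKO minus WT median was 0.02, and with the filter at the 75th percentile it was -0.30. The median over all probe sets was log2 6.75 in WT and 6.86 in AireKO. Among genes at least 2-fold different in AireKO, 1062 were lower and 336 higher. With the genes kept fixed, quantile normalization gave 838 and 416, loess 759 and 436, a median difference shifted to 0 gave 666 and 564, and median centring 548 and 706. For Sirt1cKO the counts were 211 lower and 101 higher, or 148 and 139 after median centring. Each member's difference is therefore followed by its range over the deposited values and these 4 other scalings.

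As examples of members lower in AireKO (Kat2a and Hdac5) and not lower (Ep300), the 120 bases before their outermost RefSeq start are printed 5′ to 3′. They were chosen because this stretch lies outside the RefSeq gene, not for the size of their difference. They come from RefSeq windows of GRCm38.p6 that run from 250 bases before to 50 after a start, in which 8 of the 10 members matched with 12 windows. Capitals mark a GC box (GGGCGG) or a CCAAT box (CCAAT) on either strand. The intervals are chr11:100712486-100712605 on the minus strand for Kat2a, chr11:102230173-102230292 on the minus strand for Hdac5 and chr15:81586089-81586208 on the plus strand for Ep300.
Kat2a: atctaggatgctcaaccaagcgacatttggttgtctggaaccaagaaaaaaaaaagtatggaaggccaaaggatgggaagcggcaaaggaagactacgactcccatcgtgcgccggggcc
Hdac5: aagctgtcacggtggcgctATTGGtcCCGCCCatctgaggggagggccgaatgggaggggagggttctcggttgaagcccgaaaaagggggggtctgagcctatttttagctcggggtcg
Ep300: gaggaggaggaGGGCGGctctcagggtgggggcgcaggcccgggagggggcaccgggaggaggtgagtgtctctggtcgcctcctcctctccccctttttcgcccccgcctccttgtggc

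The printed Kat2a stretch held neither motif, that of Ep300 a GC box, and that of Hdac5 both. Over the full windows, a GC box was found for 6 of the 8 matched genes (Crebbp, Ep300, Hdac2, Hdac4, Hdac5 and Hdac7) and for 38.2% of all 27025 genes with a window, counting a gene where any of its windows held the motif. A CCAAT box was found for 3 of the 8, Hdac4, Hdac5 and Kat2b, and for 41.1% of genes. By window, a GC box was in 6 of the 12 of the members and in 35.7% of all 32851, and a CCAAT box in 3 of the 12 and in 37.4%. The full cyclic AMP response element (TGACGTCA), the site of the CREB proteins that gave CBP its name, was found for 0 members and for 2.03% of genes (1.79% of windows). The Crebbp window held 49 CpG pairs and that of Hdac2 36, against a median of 7 over all windows, while the windows of Kat2b held 11 and 6. GC box matches occurred both for Hdac2, lower in AireKO, and for Crebbp, higher there, and a relation of motifs to the differences was not tested.

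**Figure D1:**
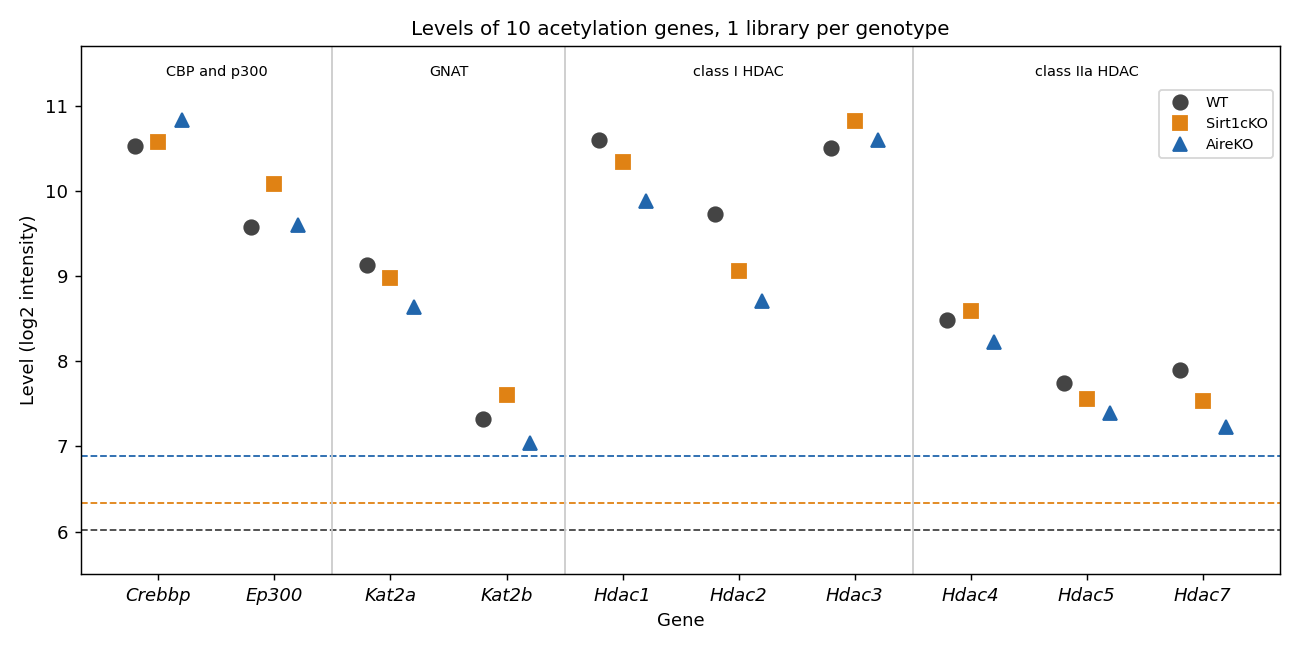
Log2 intensity (y axis) of each member gene (x axis) in WT (circles), Sirt1cKO (squares) and AireKO (triangles), 1 library each; dashed lines are each library's 95th percentile of olfactory receptor genes. Heights are comparable between libraries of 1 gene but not between genes; Hdac2 goes from 9.73 in WT to 8.71 in AireKO, while Hdac3 stays between 10.50 and 10.82.

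The members did not move as one group. By the deposited values, Hdac1, Hdac2 and Hdac7 were lower in AireKO than in WT by more than 1.5-fold. Hdac2 stayed so under all 4 other scalings, Hdac7 under quantile normalization and loess only, and Hdac1 under none. Crebbp was somewhat higher in AireKO, and Ep300 and Hdac3 were close to their WT levels. In Sirt1cKO, Hdac2 was again the lowest against WT, while Ep300, Hdac3 and Kat2b were higher than in WT by less than 1.5-fold. After median centring, Ep300 passed 1.5-fold there and Hdac2 missed it. Of the 10 members, 1 was below WT by 2-fold or more in AireKO and 0 were above it by as much, where 8.46% and 2.68% of measured genes were. At 1.5-fold, 3 were lower and 0 higher by the deposited values, against 23.6% and 8.52% of measured genes. In Sirt1cKO 0 members passed 2-fold in either direction, where 1.68% of measured genes were lower and 0.804% higher, and by 1.5-fold 1 was lower and 0 higher, against 8.27% and 4.01%. These shares lie near the backgrounds, so the counts are no result about the members.

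The median over the members was -0.32 in AireKO minus WT, against -0.19 for all measured genes, and ranged from -0.32 to -0.05 over the scalings. In Sirt1cKO minus WT it was -0.06, against -0.07, and it took both signs, from -0.06 to 0.04. AireKO was the lowest of the libraries for 7 members, and for 52.8% of measured genes. WT was the lowest for 3 members, Crebbp, Ep300 and Hdac3, and for 27.1% of measured genes, and Sirt1cKO for 0 members and 20.2%.

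Set against each other, the knockouts differed mostly one way, with 9 of 10 members higher in Sirt1cKO than in AireKO and Crebbp lower, where 61.7% of measured genes were higher. After median centring 8 members were higher, Hdac5 having turned, and 43.7% of measured genes. None of the 10 was past 1.5-fold, where 4.55% of measured genes were lower and 11.8% higher in Sirt1cKO, nor past 2-fold, where 1.04% and 2.72% were. The median over the members was 0.34, against 0.11 for all measured genes, and ranged from 0.17 to 0.34 over the scalings. The comparison shares both of its libraries with those against WT.

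**Figure D2:**
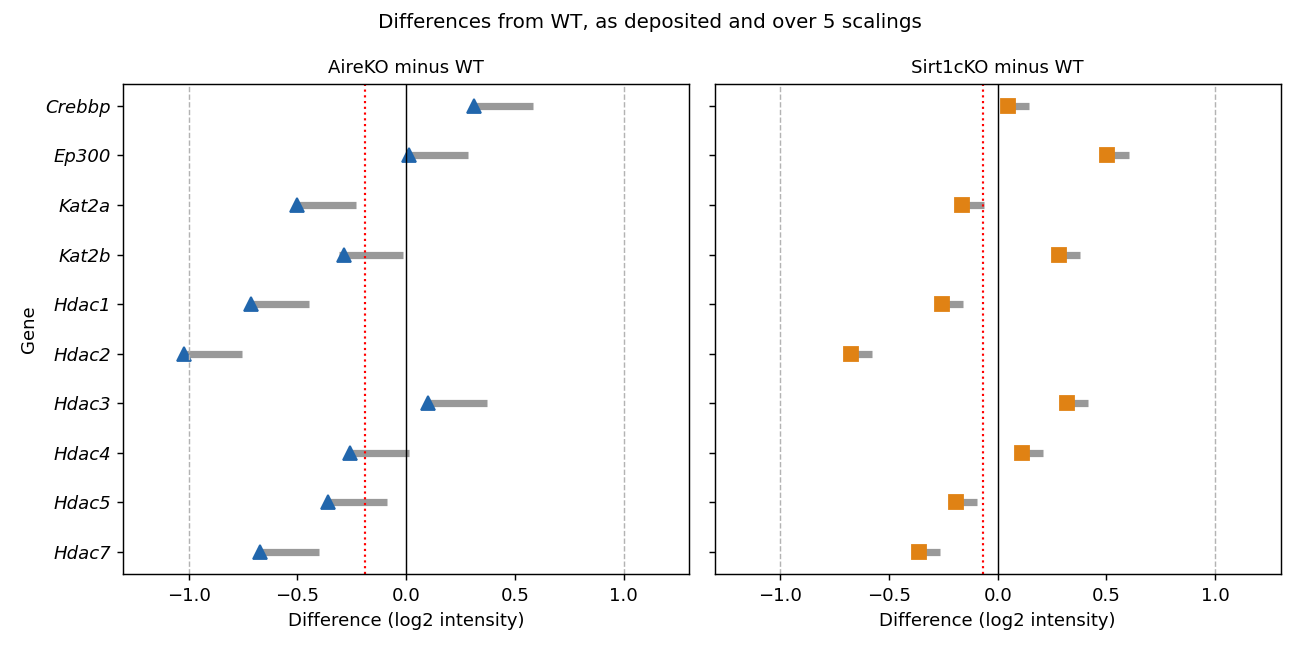
Difference from WT in log2 intensity (x axis) for each member (y axis) in AireKO (left) and Sirt1cKO (right). Symbols are the deposited values, grey bars the range over the deposited values and 4 other scalings, the red dotted line the median of all measured genes and the dashed lines 2-fold; the bar of Hdac2 lies wholly below 0 in both panels and that of Crebbp wholly above.

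The genes for the coactivators CBP and p300 were at or above their WT levels in both knockouts. Crebbp, which encodes CBP, stood at 10.52 in WT, 10.57 in Sirt1cKO and 10.83 in AireKO. Its highest library was AireKO, 0.31 above WT (0.31 to 0.58 over the scalings), and 17.8% of measured genes were as high or higher there. WT and Sirt1cKO lay 0.05 apart.

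Ep300, which encodes p300, stood at 9.58 in WT, 10.08 in Sirt1cKO and 9.59 in AireKO. It was highest in Sirt1cKO, at 0.50 above WT (0.50 to 0.60 over the scalings), where 5.70% of measured genes were as high or higher. WT and AireKO differed by 0.01, which became 0.29 after median centring. These paralogs thus had different highest libraries: the difference of Crebbp between Sirt1cKO and AireKO was -0.27 and that of Ep300 was 0.49. A constant shift of a library leaves the gap of -0.76 between these differences as it is, but a shift that varies with brightness can alter it.

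The GNAT enzymes GCN5 and PCAF carry the acetyltransferase activity of the SAGA and ATAC coactivators. The genes for both were lowest in AireKO. Kat2a, which encodes GCN5, stood at 9.13 in WT, 8.97 in Sirt1cKO and 8.63 in AireKO. Its difference from WT was -0.50 in AireKO (-0.50 to -0.23 over the scalings), where 28.2% of measured genes were as low or lower. In Sirt1cKO the difference was -0.16, so AireKO lay lowest and WT highest.

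Kat2b, which encodes PCAF, stood at 7.32 in WT, 7.60 in Sirt1cKO and 7.04 in AireKO. Its AireKO level was 0.15 above the background percentile of that library, the least of any member. The difference from WT was -0.29 in AireKO, reduced to -0.01 after median centring, and 0.28 in Sirt1cKO (0.28 to 0.38). By the deposited values Sirt1cKO lay 0.57 above AireKO.

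The class I deacetylases split, with Hdac1 and Hdac2 lower in both knockouts and Hdac3 not. HDAC1 and HDAC2 are close paralogs that occur together in the SIN3, NuRD and CoREST corepressors. Hdac2 stood at 9.73 in WT, 9.05 in Sirt1cKO and 8.71 in AireKO. WT was the highest and AireKO the lowest library, a 2.03-fold difference of -1.02 (-1.02 to -0.75 over the scalings), so that the 2-fold mark was passed by the deposited values and missed by all 4 other scalings. Of measured genes, 7.96% were as low or lower in AireKO. In Sirt1cKO the difference was -0.68 (-0.68 to -0.58), where 5.81% of measured genes were as low or lower.

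Hdac1 stood at 10.60 in WT, 10.34 in Sirt1cKO and 9.88 in AireKO by its brighter probe set. The order of the libraries was that of Hdac2, with smaller differences of -0.72 (-0.72 to -0.44) in AireKO and -0.26 (-0.26 to -0.16) in Sirt1cKO. Of measured genes, 17.5% were as low or lower in AireKO and 29.0% in Sirt1cKO. A second probe set with the same symbol stood at 9.744, 9.004 and 8.138, which gave -1.61 in AireKO and -0.74 in Sirt1cKO. Both probe sets ordered the libraries alike, but only the second was past 2-fold in AireKO. The locus at which each set lies was not established, so the second may not read Hdac1 itself. RefSeq lists an Hdac1 pseudogene, Hdac1-ps, and how far it shares probes with either set was not tested, so the size of the Hdac1 difference is uncertain.

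Hdac3 encodes the catalytic subunit of the NCoR and SMRT corepressors. It stood at 10.50 in WT, 10.82 in Sirt1cKO and 10.60 in AireKO. Both knockouts were above WT, Sirt1cKO by 0.32 (0.32 to 0.42) and AireKO by 0.10 (0.10 to 0.37). Within the class, the difference of Hdac2 from WT minus that of Hdac3 was -1.12 in AireKO, or 2.18-fold, and -0.995, or 1.99-fold, in Sirt1cKO. For Hdac1 relative to Hdac3 the gaps were -0.82 and -0.58. A constant shift of a library does not alter these gaps, but a shift that varies with brightness can. The gaps show unequal differences within the class and not which gene moved.

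**Figure D3:**
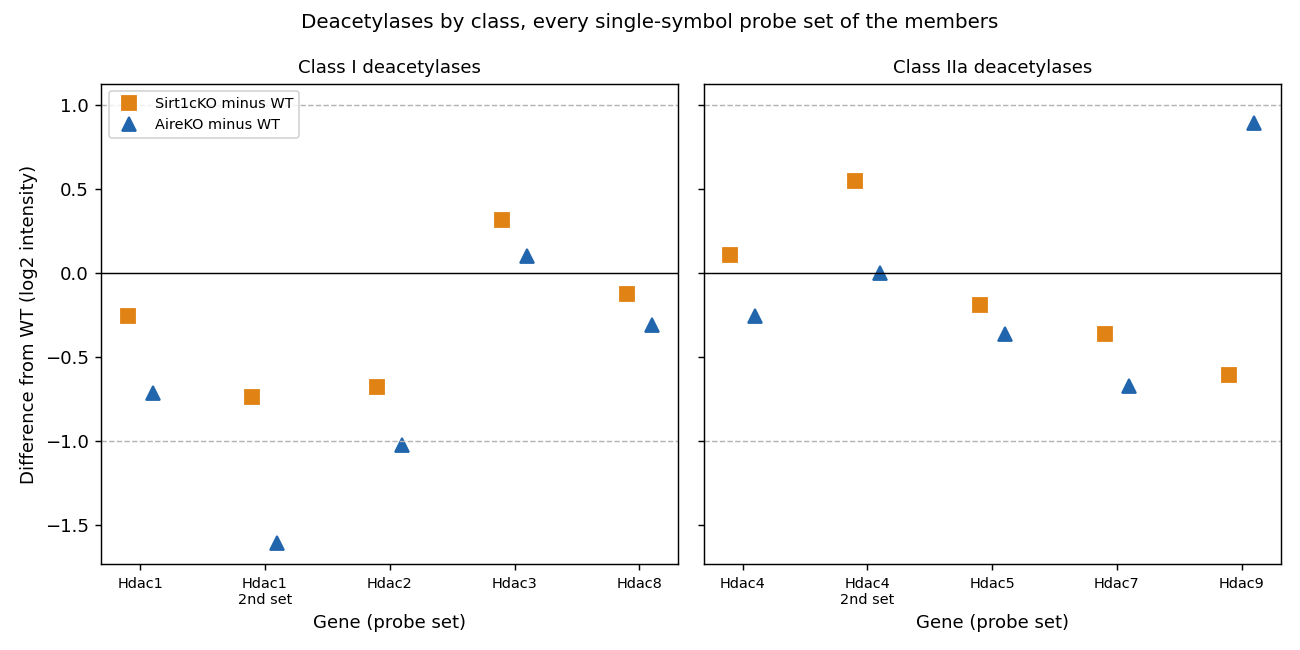
Difference from WT in log2 intensity (y axis) for class I (left) and class IIa (right) deacetylases (x axis) in Sirt1cKO (squares) and AireKO (triangles), with the second probe set of Hdac1 and Hdac4 shown on its own; dashed lines mark 2-fold. Hdac8 and Hdac9 were added to complete the classes; Hdac9 stands at 0.90 in AireKO and -0.61 in Sirt1cKO.

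The class IIa members Hdac4, Hdac5 and Hdac7 were lower in AireKO by the deposited values, with Hdac7 the lowest. Hdac7, known for its role in developing T cells and blood vessels, stood at 7.90 in WT, 7.54 in Sirt1cKO and 7.23 in AireKO. The differences from WT were -0.67 (-0.67 to -0.40) in AireKO and -0.36 (-0.36 to -0.27) in Sirt1cKO, where 19.5% and 19.7% of measured genes were as low or lower. Its order of libraries was that of Hdac1 and Hdac2, although its AireKO level lay 0.34 above background.

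Hdac5 stood at 7.75 in WT, 7.56 in Sirt1cKO and 7.39 in AireKO. Both knockouts were below WT, with differences of -0.36 (-0.36 to -0.09) in AireKO and -0.19 (-0.19 to -0.09) in Sirt1cKO. The order of Sirt1cKO and AireKO flipped after median centring, where they lay -0.01 apart.

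Hdac4 stood at 8.48 in WT, 8.59 in Sirt1cKO and 8.22 in AireKO. The AireKO difference of -0.26 took the other sign, 0.01, after median centring, and in Sirt1cKO it was 0.11 (0.11 to 0.21). A dimmer second probe set stood at 7.31, 7.86 and 7.31, with a difference of -0.00 in AireKO and 0.55 in Sirt1cKO. Neither probe set was below WT in Sirt1cKO.

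Hdac9, the other class IIa gene and no member, had the opposite order to Hdac7 between the knockouts. It stood at 8.79 in WT, 8.18 in Sirt1cKO and 9.69 in AireKO, so the library with the lowest Hdac7 had the highest Hdac9. Its gap of -1.50 between Sirt1cKO and AireKO was past 2-fold, as it was for 1.04% of measured genes, and larger than that of any member. The further zinc-dependent deacetylases Hdac6, Hdac8, Hdac10 and Hdac11 did not reach 1.5-fold against WT in either library, and Hdac8, an X-linked class I gene, differed by -0.31 in AireKO and -0.12 in Sirt1cKO.

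Other acetyltransferases lay near the median of all genes, with 0 of 17 measured past 2-fold in either knockout by the deposited values, where 8.46% of measured genes were lower and 2.68% higher in AireKO and 1.68% and 0.804% in Sirt1cKO. Their median was -0.20 in AireKO minus WT (-0.20 to 0.07 over the scalings) and 0.07 in Sirt1cKO minus WT. Hat1, which acetylates newly made histone H4, stood at 9.14 in WT, 9.40 in Sirt1cKO and 10.05 in AireKO. Its AireKO difference of 0.91 (0.91 to 1.18) passed 2-fold under all 4 other scalings, and that of Esco2, a cohesin acetyltransferase, under median centring and the median difference set to 0, so the count of higher genes in AireKO became 1 or 2. Nat10, which acetylates RNA, stood at 7.53, 7.32 and 6.75, within background in AireKO.

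Partners of the acetyltransferases were spread on both sides. Of 23 SAGA and ATAC subunits, AireKO had 1 below WT and 1 above WT by 2-fold or more, and Sirt1cKO had 0 of either. The AireKO shares of all measured genes, 8.46% lower and 2.68% higher, are the background for these counts. The lower one was Usp22, the deubiquitinase of SAGA, at -1.02 in AireKO (-1.02 to -0.75 over the scalings) and -0.53 in Sirt1cKO, and under all 4 other scalings it missed 2-fold, so that 0 were lower. The higher one was Mbip, an ATAC subunit, at 1.25 (1.25 to 1.53) and 0.88, and after median centring Taf12 passed as the second higher one. The list medians were -0.21, from -0.21 to 0.06 over the scalings, and 0.03. Among 14 partners of CBP and p300, 0 passed 2-fold against WT by the deposited values, beside the same background. Atf1, a CREB family factor, differed by 0.81 in AireKO (0.81 to 1.08), past 2-fold after quantile normalization, loess and median centring, and by 0.79 in Sirt1cKO. Cited4, a CBP and p300 binding protein, differed by -0.92 and -0.67. The median of these partners in AireKO was -0.10 by the deposited values and 0.17 after median centring.

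Among corepressor subunits, NuRD held the largest single difference. Cdk2ap1, a small NuRD subunit, stood at 11.98 in WT, 10.76 in Sirt1cKO and 9.54 in AireKO. WT was highest and AireKO lowest, with differences of -2.44 (-2.44 to -2.17) and, in Sirt1cKO, -1.21 (-1.21 to -1.12). Mta2, another NuRD subunit, was -1.02 in AireKO (-1.02 to -0.75), and these were the 2 of 11 NuRD genes at least 2-fold lower there, with Cdk2ap1 the 1 in Sirt1cKO, where 8.46% and 1.68% of measured genes were as much lower. Mta2 missed 2-fold under all 4 other scalings, which left Cdk2ap1 as the 1 in AireKO. The NuRD list left out Rbbp4 and Rbbp7, which were counted with SIN3 only. Both were higher in AireKO than in WT by the deposited values, by 0.74 and 0.37. The median of the NuRD list was -0.34 in AireKO (-0.34 to -0.07 over the scalings) and -0.02 in Sirt1cKO (-0.02 to 0.08).

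The other corepressor complexes had 0 measured genes past 2-fold against WT by the deposited values, beside the background above. SIN3, with 14 measured genes, had medians of -0.02 in AireKO, which became 0.25 after median centring, and 0.00 in Sirt1cKO. Within SIN3, the histone chaperone Rbbp4 stood at 11.44 in WT, 11.98 in Sirt1cKO and 12.18 in AireKO, the reverse of Hdac1 and Hdac2. Rbbp4 passed 2-fold in AireKO after median centring, at 1.01, and Sap30l differed by -0.68 in AireKO, where it was within background. CoREST, with 7 measured, had medians of -0.19 (-0.19 to 0.08 over the scalings) and 0.09, with Zmym3 at -0.57 and Rcor3 at 0.46 in AireKO. The NCoR and SMRT list, with 3 measured, had -0.29 in AireKO (-0.29 to -0.02) and -0.02 in Sirt1cKO (-0.02 to 0.07). With the mean of each gene's probe sets these medians were 0.09 and 0.34, so their sign depends on the probe set. Its members included Tbl1x, at -0.51 in AireKO, and Gps2, at 0.09.

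Genes that act on class IIa deacetylases include 14-3-3 proteins, which hold them in the cytoplasm, the kinases that create the binding sites, and their MEF2 targets. Of 19 measured, 1 was at least 2-fold lower in AireKO and 0 were higher, against 8.46% and 2.68% of measured genes, and 0 passed in Sirt1cKO. That gene was Ywhab, a 14-3-3 isoform, at 10.52 in WT, 9.70 in Sirt1cKO and 9.22 in AireKO, past 2-fold under every scaling (-1.31 to -1.04). The list medians were -0.29 (-0.29 to -0.02) and -0.13 (-0.14 to -0.03).

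**Figure D4:**
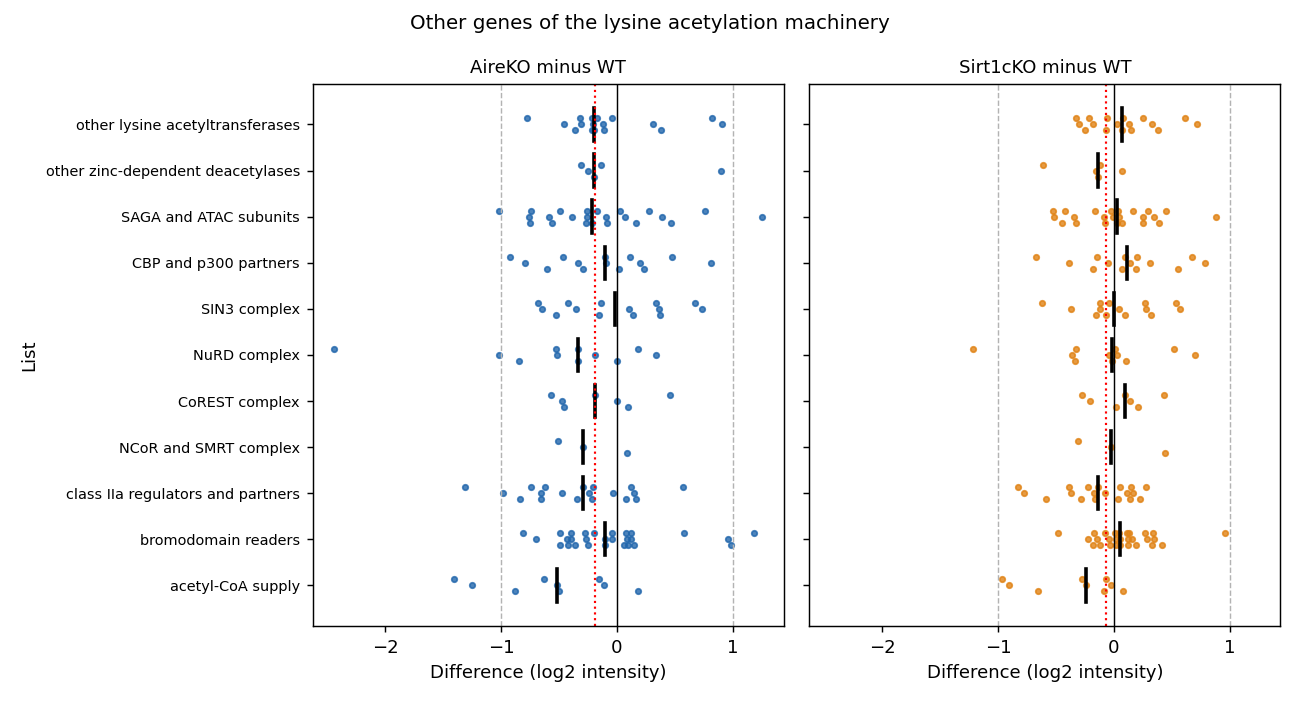
Difference from WT in log2 intensity (x axis) of each measured gene (points) in lists of the acetylation machinery (y axis) for AireKO (left) and Sirt1cKO (right). Black bars are list medians, the red dotted line is the median of all measured genes and dashed lines mark 2-fold; the lowest point, Cdk2ap1 in the NuRD list, is at -2.44 in AireKO.

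Levels of other cell types also differed between the libraries, and their part in the differences above was not tested. In these bulk samples, fewer cells of a type and less RNA per cell cannot be told apart. The summed intensity of 8 neutrophil markers was 5626 in WT, 2876 in Sirt1cKO and 995 in AireKO, with 8, 7 and 3 of them above background, and Ly6g, Elane, Mpo, Ngp and Ltf within background in AireKO. The sum of 9 dendritic and macrophage markers was 5621, 3772 and 3358, with 8, 7 and 5 above background, and Clec9a within background in every library. WT, the library with the highest Hdac1, Hdac2 and Hdac7, thus had the highest sum for both lists. A sum leans on bright genes, and Lyz2, among the dendritic and macrophage markers, stood at log2 12.06, 11.26 and 10.76. By the median of 6 measured markers, that list differed from WT by -0.18 in AireKO and -0.51 in Sirt1cKO. All measured genes had -0.19 and -0.07, so by the median AireKO was not the lowest library for that list. For 7 measured neutrophil markers the medians were -2.38 and -0.93.

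By summed intensity of 13 genes, thymocyte markers were lowest in WT, at 1686 in WT, 2109 in Sirt1cKO and 2085 in AireKO. Of these genes, 9, 9 and 7 were above background, while Cd3d, Rag2, Dntt and Ptcra were within background in every library. The sum takes in genes within background, and background was highest in AireKO. By the median of 8 measured markers, the list differed from WT by 0.34 in AireKO and 0.37 in Sirt1cKO. The sum of 16 medullary epithelial markers was 65691, 52640 and 49235, and Foxn1, a transcription factor that thymic epithelium needs, stood at 10.47, 9.99 and 9.43. The summed medullary markers and Foxn1, which is among them, had the same order of libraries as Hdac1, Hdac2, Hdac5, Hdac7 and Kat2a. Other markers of that list varied. Epcam had this order, and Cd80 the reverse, at 11.82, 12.18 and 12.58. Aire was lowest in Sirt1cKO, as was H2-Aa, at 13.04 against 13.05 in AireKO. AireKO was the lowest library for 52.8% of measured genes.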

How the data were processed

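The deposited values are linear intensities, 1 per probe set and library, in 3 libraries. The submitters' processing notes name RMA, with a version not given in the sources used here; how the values became linear is not stated. Here log2 was taken with no further normalization. Of 34760 probe sets, 21640 had 1 symbol in the platform annotation, and for each gene the brightest by mean was kept. The Entrez identifiers of 10 of 10 members matched RefSeq. A gene was measured when its highest level reached the median of all values, and counted at 2-fold or more. The members and lists were chosen with earlier results of these data known. Named genes beyond the members were, per list, those at least 2-fold different in either knockout against WT by the deposited values, at most 4. Where a list had none, they were the lowest and the highest in AireKO minus WT. The remaining zinc-dependent deacetylases, genes of the marker lists, Xist and Eif2s3y were added beyond this rule. Esco2, Taf12, Sp100 and Sp140 were added because they passed 2-fold under other scalings, and Rbbp7 because the NuRD list left it out. Alternatives were quantile normalization, loess against the library mean (span 0.3), median centring, other filters, probe-set choices, thresholds of 1.5-fold and 3-fold, and exchanged labels; setting the median difference to 0 and taking the dimmest probe set were chosen after seeing the data. The code was tested on simulated data. With 1 array per genotype, their number limits the precision. Scripts ran in Python 3.11.15 with pandas 2.3.3, numpy 2.4.6 and, for loess, statsmodels 0.14.6.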

Additional observations from a re-analysis of the deposited data

How the results depend on the processing

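The count of members at least 2-fold lower in AireKO than in WT, 1 by the deposited values, became 0 under quantile normalization, loess, median centring, the median difference set to 0, the 3-fold threshold and exchanged labels, 2 with the mean of probe sets or the dimmest probe set, and 3 at the 1.5-fold threshold. The counts of 2 take in the second probe set with the symbol Hdac1, whose locus was not established. In Sirt1cKO, 0 members were lower, which became 1 at 1.5-fold and 1 with exchanged labels. The member median in AireKO minus WT moved from -0.32 to -0.052 after median centring, -0.13 with the median difference set to 0 and -0.057 with exchanged labels. In Sirt1cKO minus WT it moved from -0.057 to 0.048 with the filter at the 75th percentile, which left 7 members, and to -0.32 with exchanged labels. In Sirt1cKO minus AireKO it was 0.34, and became 0.23 after quantile normalization, 0.20 after loess, 0.17 after median centring, 0.23 with the median difference set to 0 and -0.34 with exchanged labels. The shifts follow from how each alternative moves whole libraries, exchanges them or changes the genes and thresholds counted. The other 78 values of these counts and medians stayed within 1.5 times for counts and 0.1 for medians. No paired analysis was possible because each group has 1 library. Leaving out a library was not possible for the same reason. The background was highest in AireKO, which limits Kat2b, Hdac7 and Hdac5 there.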

Other observations

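Readers of acetyl-lysine and the supply of acetyl-CoA, the donor of the acetyl group, were not described above. Of 28 measured genes with a bromodomain, or of related reader families, 1 stood above WT by 2-fold or more in AireKO and 0 stood below it by as much, where 2.68% and 8.46% of measured genes were, and 0 passed in Sirt1cKO. Under each of the 4 other scalings the count in AireKO was 3, since Sp100 and Sp140, at 0.99 and 0.96 by the deposited values, passed too, and Atad2b was the 1 in Sirt1cKO. The higher one was Atad2b, a bromodomain ATPase, at 8.50 in WT, 9.47 in Sirt1cKO and 9.69 in AireKO, with differences of 1.19 (1.19 to 1.46 over the scalings) and 0.96 (0.96 to 1.06). The median of the readers was -0.10 in AireKO, which became 0.17 after median centring, and 0.05 in Sirt1cKO.

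Of 9 genes that supply acetyl-CoA, 2 were at least 2-fold lower in AireKO, where 8.46% of measured genes were, both subunits of the E1 component of pyruvate dehydrogenase, the mitochondrial enzyme that makes acetyl-CoA from pyruvate. Pdhb stood at 7.92 in WT, 7.27 in Sirt1cKO and 6.52 in AireKO, within background there. The X-linked Pdha1 stood at 9.03, 8.12 and 7.78, a difference of -1.25 in AireKO (-1.25 to -0.98, short of 2-fold after median centring, which left 1 of the 9) and -0.91 in Sirt1cKO. The list median was -0.52 in AireKO (-0.52 to -0.25) and -0.24 in Sirt1cKO (-0.24 to -0.14), where all measured genes had -0.19 and -0.07. Of the 11 lists of the acetylation machinery, this one had the lowest median in both knockouts.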
